A study of Homo sapiens with 12 samples.

Results

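Total H2A.Z was compared by ChIP-seq between K562 cells that expressed WT EP400 and K562 cells that expressed EP400 without its TRRAP-binding part (dTRRAP). The members are all regions of the H2A.Z lists that set WT against dTRRAP. They number 63442 of the 158028 regions deposited for the series, and the others belong to acetylated H2A.Z (H2A.Zac). K562 is a human chronic myeloid leukemia line with erythroid features. In both groups the endogenous EP400 carries the dTAG degron on all alleles, an exogenous EP400 is expressed from the AAVS1 site within PPP1R12C, and the cells received 500 nM of the degrader dTAGV-1 for 24 h before fixation. The WT group carries endogenous EP400-dTAG with exogenous WT EP400, and the dTRRAP group carries endogenous EP400-dTAG with exogenous EP400 lacking the SANT and HD domains. Each group has 2 H2A.Z libraries, and each line is a single clone of 1 parental clone, so that the mutation and any other difference between the clones cannot be told apart.

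H2A.Z is a variant of histone H2A that is placed in nucleosomes beside active and poised gene starts and at enhancers. EP400 is the ATPase of the human TIP60 complex and exchanges H2A for H2A.Z, TRRAP is the large subunit that binds transcription factors, and the SRCAP complex also deposits H2A.Z. The comparison asks where H2A.Z goes in the genome when the complex can no longer hold TRRAP through EP400.

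The authors sorted each region by the log10 likelihood ratio between the lines, with a cutoff of 3. Regions higher in WT are called lost here and regions higher in dTRRAP gained. The lists hold 12592 lost regions (19.8% of all), 8965 gained regions (14.1%) and 41885 unchanged regions. The likelihood ratio reached 57.0 among lost and 53.4 among gained regions, with medians of 5.95 and 5.48. It is not a fold change, and it rose with region width (Spearman correlation 0.50 across lost and 0.48 across gained regions, which share libraries and depth). Each region carries this single value. Read counts, library depth and values per replicate were not analysed here, so no spread between replicates and no test across conditions is given, and the intervals printed are Wilson 95% intervals that cover counting error only. No lost region overlapped a gained region, but 36.1% of lost and 46.1% of gained regions overlapped an unchanged region by at least 1 base, so a single site can stand in more than 1 list.

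Sequences at very strong changes are shown for gene starts and for distal sites. For each direction, the 150 bases before the start of a promoter gene with a very high ratio are shown from hg38. The strongest region in an intron of a protein-coding gene and the central 150 bases of the strongest intergenic region are shown too. INPP5D, which is not the lost promoter with the highest ratio, had a lost promoter region that covers the window shown. CCNG1 and DDIT4 had gained regions that begin 12 and 29 bases downstream of their starts, so their windows lie just outside these regions. The windows are chr2:233059817-233059966 for INPP5D, chr5:163437419-163437568 for CCNG1 and chr10:72273769-72273918 for DDIT4 (plus strand). The intronic regions are printed whole on the plus strand, chr12:123743064-123743341 in intron 9 of ATP6V0A2 (lost) and chr9:70411014-70411272 in intron 1 of KLF9 (gained). The intergenic windows lie at chr20:31587969-31588118 17.2 kb from the start of ID1 (lost) and chr7:10162123-10162272, 778 kb from that of NDUFA4 (gained), also on the plus strand. Capitals mark matches, on either strand, to a GATA motif (AGATAA), an E-box (CACGTG), an ETS motif (CCGGAA), an SP/KLF motif (GGGCGG), an NFY motif (CCAAT), a CRE (TGACGTCA) and motifs of E2F, AP-1, YY1 and NRF1, the latter without a match here. No window overlaps an exon of a protein-coding gene.
INPP5D: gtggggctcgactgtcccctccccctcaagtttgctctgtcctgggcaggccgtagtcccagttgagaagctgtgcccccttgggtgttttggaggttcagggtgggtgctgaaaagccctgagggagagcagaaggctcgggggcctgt
CCNG1: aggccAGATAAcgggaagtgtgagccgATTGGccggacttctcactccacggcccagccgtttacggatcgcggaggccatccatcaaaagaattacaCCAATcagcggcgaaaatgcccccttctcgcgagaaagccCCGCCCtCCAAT
DDIT4: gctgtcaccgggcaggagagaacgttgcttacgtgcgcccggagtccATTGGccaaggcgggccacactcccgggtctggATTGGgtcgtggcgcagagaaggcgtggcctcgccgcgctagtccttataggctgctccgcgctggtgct
ATP6V0A2: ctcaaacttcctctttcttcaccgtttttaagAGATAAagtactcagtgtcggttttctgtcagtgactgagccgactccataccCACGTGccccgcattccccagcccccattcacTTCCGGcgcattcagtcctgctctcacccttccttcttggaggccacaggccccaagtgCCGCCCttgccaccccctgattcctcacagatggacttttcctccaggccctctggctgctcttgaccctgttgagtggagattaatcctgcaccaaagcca
KLF9: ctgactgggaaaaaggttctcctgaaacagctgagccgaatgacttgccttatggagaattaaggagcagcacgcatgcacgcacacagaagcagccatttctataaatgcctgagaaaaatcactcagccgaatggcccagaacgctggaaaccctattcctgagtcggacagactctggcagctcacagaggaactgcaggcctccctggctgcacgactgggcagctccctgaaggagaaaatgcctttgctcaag
ID1: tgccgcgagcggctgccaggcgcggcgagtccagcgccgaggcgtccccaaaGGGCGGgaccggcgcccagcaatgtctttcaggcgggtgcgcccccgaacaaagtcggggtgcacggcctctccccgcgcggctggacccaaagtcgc
NDUFA4: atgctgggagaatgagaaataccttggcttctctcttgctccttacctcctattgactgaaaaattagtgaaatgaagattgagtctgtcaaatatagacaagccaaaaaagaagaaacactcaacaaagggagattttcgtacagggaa
The windows differ widely in base composition. GC content of the lost windows was 62.7% before INPP5D, 55% in ATP6V0A2 and 74.0% at the site of ID1. It was 52.5% in KLF9 and 38.0% at the site of NDUFA4, which are gained, and 58.0% and 66.7% in the windows beside the gained regions of CCNG1 and DDIT4.

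H2A.Z changed in opposite directions at promoters of protein-coding genes and between genes. At protein-coding promoters (within 1 kb of a gene start), 1368 regions were lost and 2583 gained, so gained regions made up 65.4% of the changed ones (63.9 to 66.8%). Between genes, 5340 regions were lost and 2020 gained, a gained share of 27.4% (26.4 to 28.5%). Promoters of protein-coding genes were also the class that changed least often, with 23% of 17150 regions changed against 39.7% of 18538 intergenic and 40.1% of 15696 intronic regions. The intervals of promoter, intronic and intergenic shares do not overlap. They treat neighboring regions as independent, which these are not.

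The direction at promoters differed between types of gene. Promoters of long noncoding RNA (lncRNA) genes that were not also protein-coding promoters held 530 lost and 549 gained regions, a gained share of 50.9% (47.9 to 53.9%). At promoters of pseudogenes, 733 of 1135 regions were unchanged. Most of the changed ones were lost, 269 against 133 gained, a gained share of 33.1% (28.7 to 37.8%). Over all regions at their starts, whether or not a protein-coding start was near, processed pseudogenes, which are reverse-transcribed copies of mRNAs, held 196 lost and 101 gained regions (34.0%, 28.9 to 39.6%). Transcribed unprocessed pseudogenes held 28 lost and 42 gained (interval of the gained share 48.3 to 70.7%), and unprocessed pseudogenes without recorded transcription 55 lost and 28 gained. Among small RNA genes, snRNA genes had 37 lost and 14 gained regions, snoRNA genes 6 lost and 16 gained, and miRNA genes 29 lost and 58 gained. Away from protein-coding promoters the miRNA genes had 23 lost and 22 gained, and the snoRNA genes 4 and 6. Many snRNA and pseudogene entries are near-identical copies, so their reads are uncertain in position.

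In protein-coding genes, exonic regions had a gained share of 40.9% (984 lost, 680 gained) and intronic regions of 45.7% (2302 lost, 1936 gained). In lncRNA and other genes the shares were lower, 35.6% in exons (338 lost, 187 gained) and 35.5% in introns (1322 lost, 729 gained). All intronic regions together had a gained share of 42.4% (41.2 to 43.6%). The gained share over all listed regions was 41.6% (40.9 to 42.2%), between those of the introns of protein-coding genes (44.2 to 47.2%) and of other genes (33.5 to 37.6%). On unplaced contigs, which carry no annotation here, 94 of 117 changed regions were gained.

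**Figure D1:**
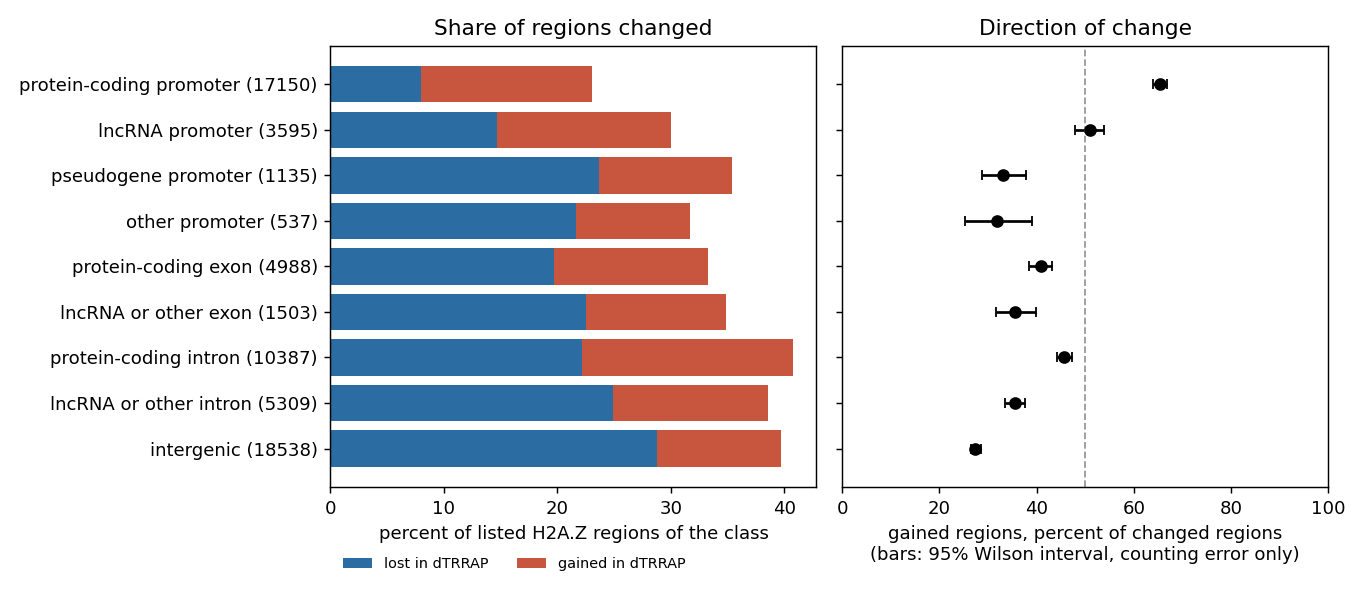
Left, percent of the listed H2A.Z regions of each class that were lost (blue) or gained (red) in dTRRAP, with the number of regions in parentheses; right, gained regions as a percent of changed regions with 95% Wilson intervals. Protein-coding promoters sit at 65.4% gained and intergenic regions at 27.4%, on either side of the dashed line at 50%.

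Most changed promoter regions were gained and most changed intergenic regions lost on 20 of 23 chromosomes (1 to 22 and X). The gained share was higher at protein-coding promoters than between genes on all 23. It was over 50% at promoters on 21 of them, all but chromosomes 19 and 20, and under 50% between genes on 22, all but chromosome 13. Chromosomes 19 and 20 stand apart, with 28.0% and 13.0% of changed promoter regions gained and 5.94% and 4.95% of intergenic ones. Chromosomes 13 and X stand at the other end of the promoter values with 91.3% and 92.4%. Without chromosomes 19 and 20 the gained share was 70.7% at protein-coding promoters, 44.6% in introns and 29.3% between genes. The copy number of each chromosome in the 2 clones was not analysed here, and a change of copy number cannot be told apart from a change of H2A.Z over a whole chromosome.

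**Figure D2:**
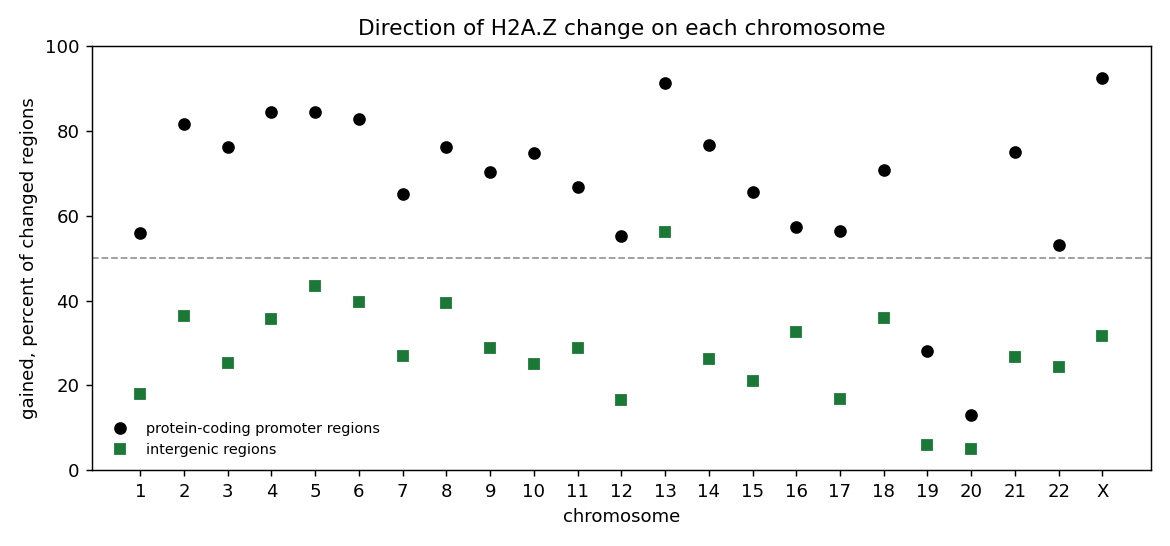
Gained regions as a percent of changed H2A.Z regions on each chromosome, for protein-coding promoters (circles) and intergenic regions (squares). Circles lie above squares on all 23 chromosomes, while both fall under 30% on chromosomes 19 and 20.

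Distance from a gene start and GC content each went with the direction. Gained regions were 67.2% of changed regions whose midpoint lay within 1 kb of a protein-coding start, 38.0% at 1 to 5 kb and 26.5% at 5 to 20 kb. Between the first and second of these bins the rate of loss differed, at 7.26% and 24.5% of listed regions, while 14.9% and 15.0% were gained. At 5 to 20 kb 27.8% were lost and 10.1% gained. The gained share was 34.8% at 20 to 100 kb, 44.5% at 100 to 500 kb and 58.2% farther away, where 16.3% of regions were lost and 22.7% gained. The highest and lowest values for these farthest regions, with each chromosome left out in turn, were 61.4% without chromosome 21 and 56.3% without chromosome 7. Low GC went with gain. Away from promoters, gained regions were 64.4% of changed regions with under 40% GC and 19.2% of those with 60 to 65% GC, and 32.5% of those above 65% GC. The median GC content of intergenic regions was 49.4% for lost, 44.6% for gained and 48.1% for unchanged ones.

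Promoters kept a higher gained share than distal sites at matched GC content. Among regions with 45 to 55% GC, the gained share was 65.6% (62.7 to 68.4%) within 1 kb of a start and 20.4% (18.7 to 22.2%) at 5 to 20 kb. Among those above 55% GC the shares were 64.4% and 19.7%, and among those under 45% GC 80.1% and 48.2%. The share was lowest at 5 to 20 kb in each band, but under 45% GC its interval (45 to 51.3%) overlapped that at 20 to 100 kb (48.2 to 52.4%). Both lines were sequenced as separate libraries, and the part of any GC bias between libraries in these shares was not tested.

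**Figure D3:**
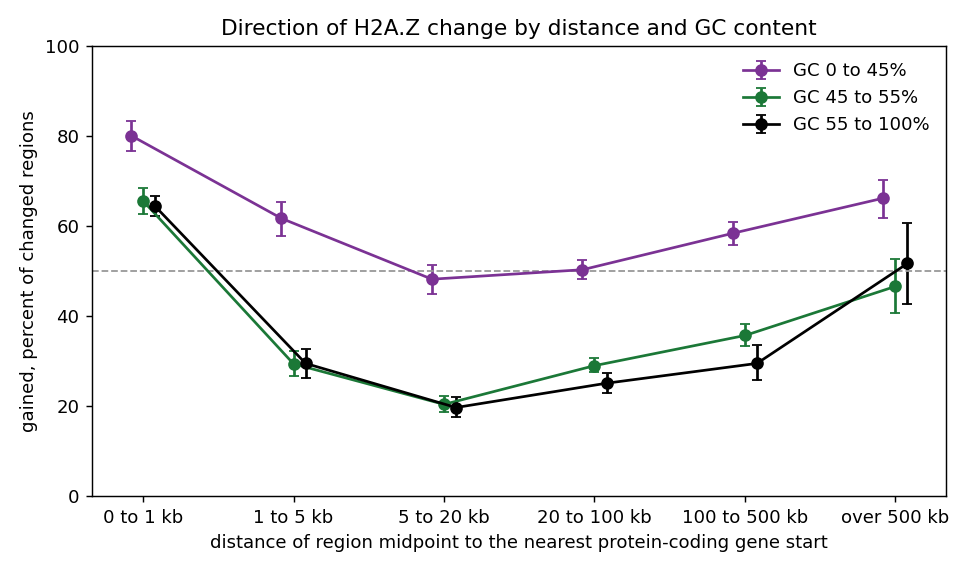
Gained regions as a percent of changed H2A.Z regions against the distance of the region's midpoint to the nearest protein-coding gene start, for 3 bands of GC content, with 95% Wilson intervals. All bands are lowest at 5 to 20 kb, and regions under 45% GC lie above the others at every distance.

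Motif matches in the central 300 bases also separated lost from gained distal sites. The letters AGATAA, the core bound by GATA1 and its relatives in erythroid cells, were found in 11.7% (11.1 to 12.4%) of lost and 22.7% (21.7 to 23.9%) of gained regions away from promoters, against 15.5% of unchanged ones and 15.6% of all. In windows with 40 to 50% GC the shares were 15.6% and 25.6%, and with 50 to 60% GC 7.98% and 15.0%. AP-1 matches (TGANTCA) stood at 9.78% of lost and 14.2% of gained regions in the 40 to 50% band, with 12.2% over all regions of that band. E-box matches (CACGTG) stood at 4.75% and 2.94%, with 4.35% over all. A match is a description of letters and not of a bound factor.

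At protein-coding promoters lost regions held fewer matches to the SP/KLF, ETS and CRE motifs than gained or unchanged regions. SP/KLF matches (GGGCGG) stood in 31.1% of lost, 39.4% of gained and 55.2% of unchanged regions, with 50.9% over all. ETS matches (CCGGAA) stood in 8.77%, 12.9% and 17.2%, with 15.9% over all. In windows with 55 to 65% GC, ETS matches were in 9.53% of lost (7.11 to 12.7%) and 19.9% of gained regions (17.0 to 23.2%), next to 20.9% of unchanged ones. CRE matches (TGACGTCA) were in 0 of 1368 lost regions, which allows up to 0.280% by the Wilson interval. They were in 0.503% of gained and 1.05% of unchanged regions, with 0.886% over all. With 55 to 65% GC they were in 0 of 430 lost (up to 0.885%) and 0.779% of gained regions (0.333 to 1.81%), whose intervals overlap. RUNX matches (TGTGGT) went the other way, with 15.0% of lost, 11.5% of gained and 9.32% of unchanged regions and 10.1% over all. Matches of YY1 (AAGATGGC) were in 0.731%, 1.47% and 2.68% of lost, gained and unchanged regions, with 2.34% over all. For NRF1 (GCATGCGC) these shares were 0.658%, 0.929% and 2.02%, with 1.75% over all, and for E2F (TTCCCGC) 5.19%, 7.24% and 8.64%, with 8.15% over all. NFY matches (CCAAT) were in 24.7%, 26.2% and 21.5% of them, with 22.5% over all, and matches to a CTCF core (AGNGGGC) in 26.5%, 24.4% and 32.2%, with 30.6% over all. The NF-kB motif was found in 0.804%, 0.310% and 0.364%, with 0.391% over all. GATA matches (AGATAA) were in 6.51%, 10.9% and 6.52% of lost, gained and unchanged regions, with 7.18% over all. With 55 to 65% GC these GATA shares were 4.88%, 6.07% and 5.65%, with overlapping intervals. In windows with 55 to 65% GC, lost, gained and unchanged regions held SP/KLF matches in 30.9%, 45.3% and 47.1%. NFY matches stood there in 21.4%, 24.8% and 24.5%, and CTCF core matches in 30.2%, 30.8% and 29.8%. E2F matches were in 4.65%, 8.88% and 8.21%, and NF-kB matches in 1.63%, 0.623% and 0.241%. Thus NFY, E2F and NF-kB changed their order, and the CTCF core differed little. The ratio of observed to expected CpG, a sign of CpG islands, had a median of 0.447 in lost, 0.668 in gained and 0.719 in unchanged promoter regions.

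Changed promoter regions lay beside the gene start more often than over it, and lost and gained regions had their higher peak on different sides. Of 12033 protein-coding genes with a listed H2A.Z region within 1 kb of the start, lost regions covered the most starts at 500 bases upstream (3.80%), and gained regions at 350 bases downstream (8.11%). Each list also had a lower peak on the other flank, lost regions at 250 bases downstream (3.17%) and gained regions at 400 bases upstream (6.73%). At 1500 bases upstream, lost regions covered 1.60% and gained regions 0.939% of the starts, and at 1500 bases downstream 0.914% and 2.16%. The midpoint lay downstream in 40.6% of lost (38.1 to 43.3%), 62.3% of gained (60.4 to 64.1%) and 59.1% of unchanged promoter regions. Only 22.7% of lost and 20.6% of gained promoter regions covered the start itself, against 6605 of 13199 unchanged ones. Their median widths were 486, 407 and 864 bp. Without chromosomes 19 and 20, the gained share of changed promoter regions was 60.5% upstream and 78.6% downstream of the start.

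**Figure D4:**
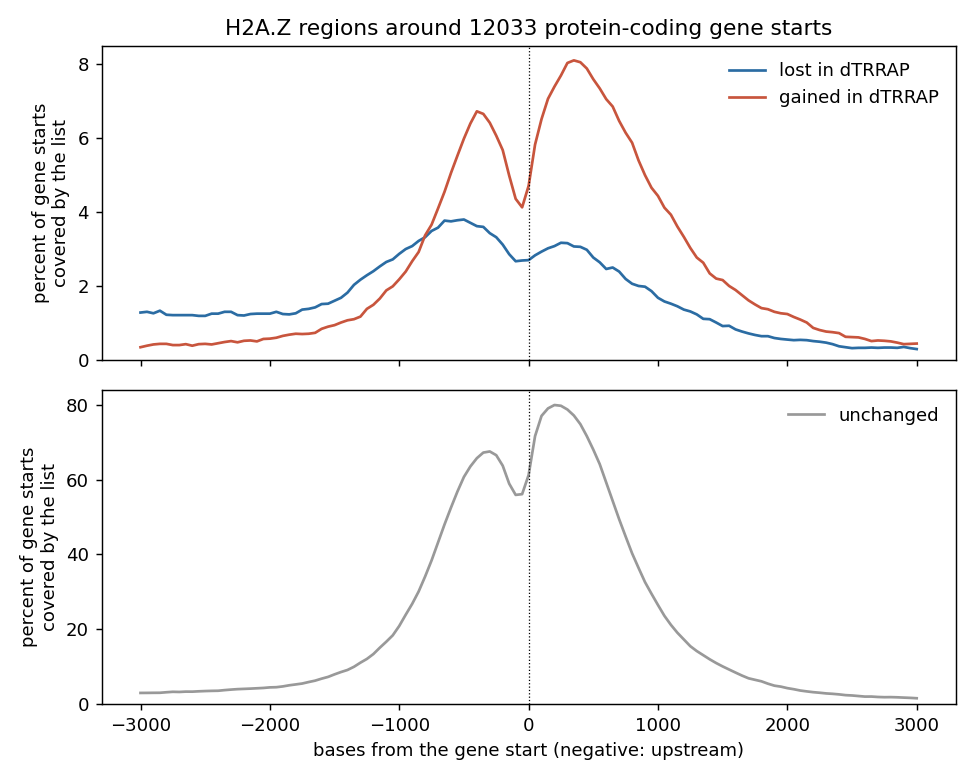
Percent of 12033 protein-coding gene starts covered by lost and gained (top) and unchanged (bottom) H2A.Z regions, by position in bases from the start in the direction of transcription. Unchanged coverage dips to 55.9% at 100 bases upstream of the start. Gained and lost regions each peak on both flanks, gained regions higher downstream and lost regions higher at 500 bases upstream.

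Counted by gene, 1256 protein-coding genes had lost and no gained promoter regions (10.4% of those with a listed region), 2532 had gained and no lost ones (21.0%), and 73 had both. The remaining 8172 had unchanged regions alone. The excess of gained over lost genes was small at a ratio of at least 10, as given in the last section. Most changes were partial, since 80.1% of the genes with lost and 89.3% of those with gained regions also kept an unchanged region in the same window. The start itself lay under an unchanged region in 51.0% of the former and 45.4% of the latter. Of 5015 lncRNA genes with a listed region, 623 had lost and no gained regions and 1001 had gained and no lost ones. Of the 7306 regions at lncRNA starts, 3595 lay away from protein-coding promoters.

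Among the lost promoters, DDN, which encodes the postsynaptic and kidney podocyte protein dendrin, had the highest ratio (44.39) in a region of 1515 bp over its start, with no other region in the window, and the same region lies within 1 kb of the start of the antisense DDN-AS1. The region of 2713 bp shared by UIMC1, a ubiquitin-binding DNA repair factor, and ZNF346 had a ratio of 29.42, and that at FGFR4, a fibroblast growth factor receptor located nearby on chromosome 5, had 25.17. INPP5D, the SHIP1 phosphatase that limits PI3K signaling, had 19.27, ELANE, the neutrophil elastase, 18.55, PRSS57, a serine protease of neutrophil granules, 18.07, DEF6, a guanine nucleotide exchange factor of lymphocytes, 18.4, and CD79A, a chain of the B cell receptor complex, 17.91. The others were GATA5, a transcription factor of heart and endoderm (19.19), MFAP4, a protein of elastic fibers (18.41), KPTN, an actin-associated regulator of mTORC1 (18.08), and CIZ1, a nuclear matrix protein of DNA replication (17.83). The lost region lay over the start in 11 of these 13 genes, all but DEF6 and KPTN. Only DEF6, KPTN and CIZ1 of the 13 also had an unchanged region in the window.

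Among the gained promoters, CCNG1, a cyclin induced by p53, had the highest ratio (27.27) in a region that begins 12 bases downstream of its start. DDIT4, which restrains mTOR signaling under stress, had 25.27 in a region that begins 29 bases downstream. Neither has an unchanged region in the window, and each has a second gained region there. Next came BOD1, a chromosome biorientation factor (25.07), MGP, an inhibitor of calcification (25), ZNF608 (24.99) and MAT1A, a methionine adenosyltransferase of liver (24.75). STXBP5 had 20.72 in a region of 3519 bp, MAF, a transcription factor of the AP-1 superfamily, 19.95, DMXL2 19.28, LIMS4 with the overlapping gene ENSG00000257207 18.78, NIPAL4 with ENSG00000285868 18.32, and ADAM19, a metalloprotease, 17.6. Of the 14 genes that these regions name, 6 had the gained region or another gained one over the start and 1, DMXL2, had an unchanged region in the window. LIMS4 has near-identical copies on chromosome 2, so its reads are uncertain.

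Several of the strongest genes lie in stretches where most changed regions went one way. Of the 12 strongest gained promoter regions 5 are on chromosome 5 and none on chromosomes 19 and 20, while of the 12 strongest lost ones 2 are on chromosome 5 and 5 on chromosomes 19 and 20. Within 5 Mb of CCNG1, 57 regions were gained and 0 lost, and around NIPAL4 and ADAM19 83 were gained and 0 lost. Around KPTN 358 were lost and 17 gained, and around GATA5 89 were lost and 0 gained. Other genes changed against their surroundings. Near DDIT4, 148 regions were lost and 30 gained, near MAT1A 41 were lost and 23 gained, and near UIMC1 and ZNF346 47 were lost and 96 gained. Input libraries were not analysed here, and the part of copy number in these stretches was not tested.

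Among lncRNA genes, ITGB2-AS1, antisense to the leukocyte integrin gene ITGB2, had a lost region over its start (20.57), and ANKRD18DP had one beside an unchanged region over its start (19.23). The unnamed genes ENSG00000251257 and ENSG00000263316 had lost regions with 21.17 and 19.64. Of the gained ones, MIR223HG, the host transcript of the myeloid microRNA miR-223, had a region over its start with a ratio of 25.16. The highest ratio of the gained lncRNA promoters was 31.87, at ENSG00000234710 on chromosome 7, and ENSG00000250244 had 23.13. The lncRNA genes ENSG00000254186 and ENSG00000289506 share their gained regions with CCNG1 and DDIT4.

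In introns of protein-coding genes, the only introns ranked here, the highest ratio of each direction was found in a narrow region. The lost region in intron 9 of ATP6V0A2, a subunit of the vacuolar proton pump, is 278 bp wide and had the highest ratio of all lost regions (57.0), and the gained region in intron 1 of KLF9, a Krüppel-like transcription factor, is 259 bp wide with 45.01. The highest ratio of all gained regions (53.4) belongs to a region that is not named here. Both intronic sequences are printed above, and the source of the reads in these narrow regions was not tested. ATP6V0A2 lies in a stretch with 150 lost and 1 gained regions within 5 Mb, and KLF9 in one with 13 lost and 26 gained. Only 8 of the 76 lost and 13 of the 100 gained regions with a ratio of at least 20 are under 500 bp wide. Other lost intronic regions lay in LRRC7 (25.62), ABL1 (24.16), TSHZ2 (23.38), PAX7 (23.07) and GSN (22.86). ABL1, the kinase gene that is fused to BCR in K562, lies in a stretch with 95 lost and 45 gained regions within 5 Mb. Gained ones lay in ALDH1L1 (26.19), ZNF595 (26.07), GPC6 (25.81), STXBP5 (22.9) and CALCRL (22.6).

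The genes with the most changed intronic regions were chosen for having at least 80% of them in a single direction, so that their one-sidedness is part of the choice. RUNX1, a master regulator of blood formation, had 27 lost and 1 gained intronic regions beside 41 unchanged ones. A lost region (9.16) lay beside an unchanged one near its outermost annotated start, at chr21:36005304-36006149. Only this outermost start of the annotated span of 1217 kb was used, and starts inside the gene were not counted as promoters. CDH23 had 25 lost, 0 gained and 10 unchanged regions, ANGPT1, a ligand of the receptor TIE2, 19, 0 and 1, COL25A1 19, 0 and 4, and MRPS22 17, 0 and 15. The counts were not scaled by gene length, and long genes can hold more regions. Annotated spans were 419 kb for CDH23, 249 for ANGPT1, 494 for COL25A1 and 355 for MRPS22. For the gained genes named next, spans were 755 kb for ADGRB3, 338 for RXFP1, 1181 for GPC6 and 1115 for CADM2. A region within overlapping genes counted for each of them. On the gained side, ADGRB3, an adhesion receptor of neurons, had 19 gained, 0 lost and 17 unchanged regions, RXFP1, the relaxin receptor, 16, 0 and 7, GPC6, a glypican, 15, 0 and 2, and CADM2, a cell adhesion molecule of neurons, 13, 0 and 6. The unnamed gene ENSG00000285218 had 11 gained, 1 lost and 38 unchanged. Within 5 Mb of RXFP1, 42 regions were gained and 6 lost in all, and around RUNX1 89 were lost and 49 gained. Around CDH23 148 were lost and 30 gained, and around CADM2 6 and 36. Lost and gained regions numbered 49 and 34 around COL25A1, 55 and 28 around MRPS22, and 37 and 45 around ADGRB3. Regions of the named gene were not taken out of these counts, so they do not describe its surroundings alone.

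The strongest lost intergenic regions lay 17.2 kb from the start of ID1, an inhibitor of basic helix-loop-helix factors (43.82), 240 kb from IRX1 (31.14) and 268 kb from XXYLT1 (29.26). The strongest gained ones lay 778 kb from the start of NDUFA4 (30.26), 7.47 kb from CROCC (29.94) and 67.1 kb from CPEB4 (29.12), the nearest protein-coding genes. A nearest gene is a position and not a target.

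CCND1, the cyclin D1 gene, had a lost region of 1980 bp over its start (11.18), another upstream (7.61), and an unchanged region at exon 2. DACH1, a transcriptional corepressor, had gained regions of 1126 bp reaching from exon 1 into the gene (11.54) and of 312 bp upstream (5.58) on either side of an unchanged region. No H2A.Z region was listed at TERT. At EP400 itself, a gained region lay in intron 1 (4.74) and a lost region of 281 bp lay wholly within exon 53, the last (8.71, chr12:132077412-132077692). At PPP1R12C, where the exogenous EP400 was inserted, lost regions lay in intron 1 (9.32) and over exons 2 to 3 (15.26), with an unchanged region over exon 1. Within 5 Mb of PPP1R12C 178 regions were lost and 10 gained, around EP400 51 and 14, around CCND1 97 and 64, and around DACH1 7 and 32. Reads of the exogenous copies and of the endogenous genes cannot be told apart in the lists. TRRAP had an unchanged region at its start. A lost region of 281 bp farther upstream (5.5) lies at the start of the neighboring gene TMEM130, beside another unchanged one.

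**Figure D5:**
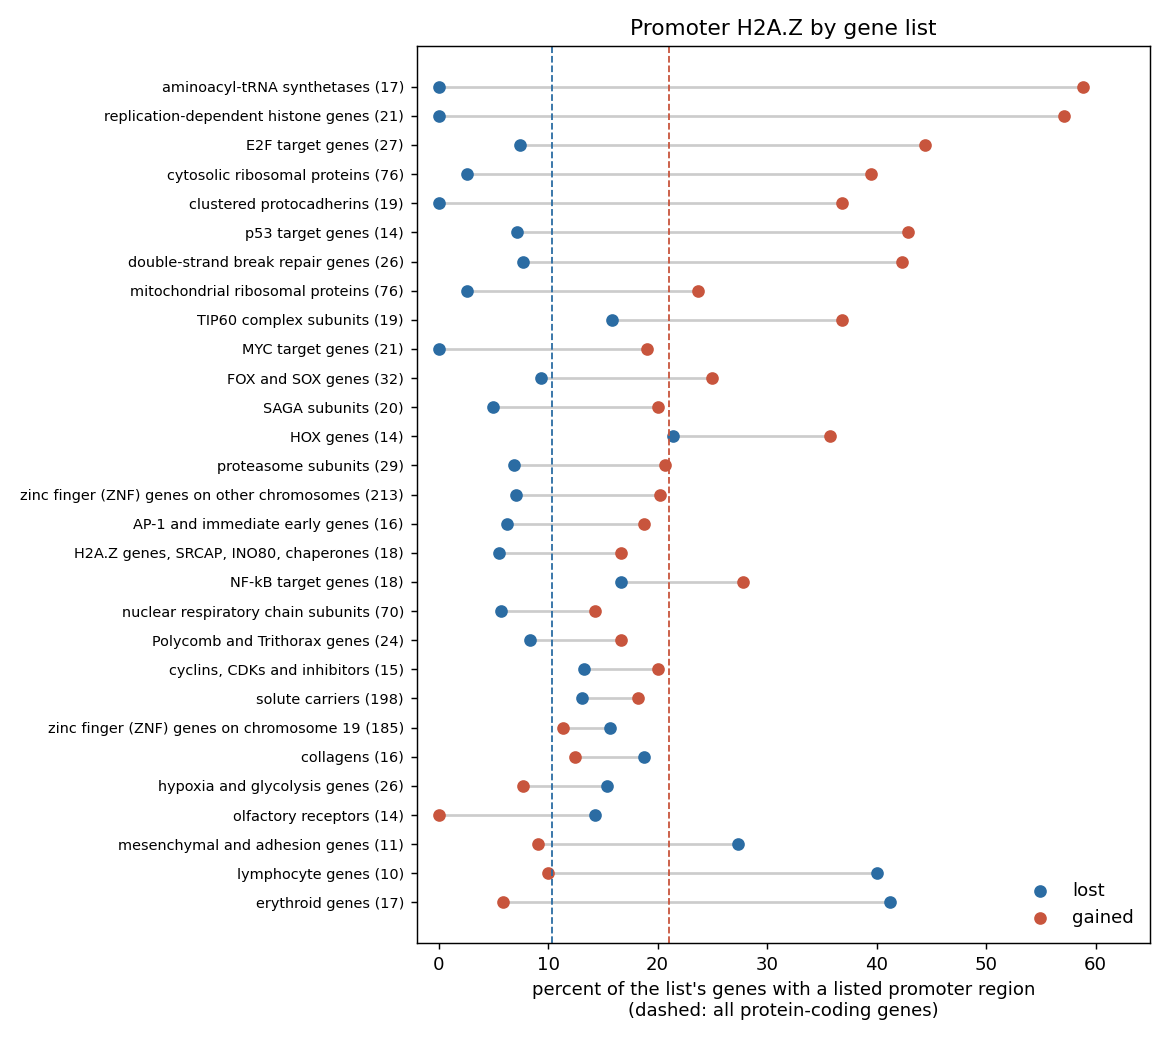
Percent of the genes of each list with lost and no gained (blue) or gained and no lost (red) promoter regions. The base is the list's genes with a listed promoter region, whose number is in parentheses. Dashed lines mark all protein-coding genes. Lists with under 10 such genes are not drawn. The aminoacyl-tRNA synthetases and histone genes lie farthest to the gained side and the erythroid genes farthest to the lost side.

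Of 17 aminoacyl-tRNA synthetase genes, whose products load tRNAs with amino acids, 10 had gained and no lost promoter regions (58.8%). Lost and no gained regions stood at 0 of them and both kinds at 2, against 21.0% gained and 10.4% lost of all genes. The 10 genes lie on 8 chromosomes and had a median ratio of 5.62, next to 5.11 for all genes with gained regions. Among them HARS1, LARS1 and RARS1 are on chromosome 5, where 84.5% of all changed protein-coding promoter regions were gained. LARS1 had the highest ratio (13.34), with 2 gained regions and no unchanged one. AARS1, one of the genes with both, followed with 11.96 gained and 5.02 lost, and YARS1 had 10.32. Of 76 genes for cytosolic ribosomal proteins, 30 had gained (39.5%) and 2 lost regions (RPL6 and RPS3), with the highest gained ratios at RPS25 (15.59), RPL22L1 (9.51) and RPL23A (8.77). Mitochondrial ribosomal protein genes were nearer to the background, with 18 of 76 gained (23.7%) and 2 lost. Nuclear genes of the respiratory chain had 10 of 70 gained (14.3%) and 4 lost.

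Of 27 E2F target genes, which act in DNA replication and the cell cycle, 12 had gained regions (44.4%). Of all genes 21.0% were gained and 10.4% lost, against which the lists of this paragraph are to be read. Among the 12 were CCNA2 (12.92), RRM1 (9.13), CDT1 (7.51) and the MCM3, MCM4, MCM5, MCM6 and MCM7 genes of the replicative helicase. The 2 with lost and no gained regions, E2F1 and MYBL2, both lie on chromosome 20. Of 21 replication-dependent histone genes with a listed region, 12 were gained (57.1%) and 0 lost, led by H1-4 (10.47), H1-3 (9.74) and H2BC18 (9.7). Those genes are clustered on 2 chromosomes, are near-identical in part, and 48 of the 69 had no listed region, so they are far from independent. Around H1-4, 85 regions were lost and 99 gained within 5 Mb. Of 26 genes of double-strand break repair, 11 were gained (42.3%), with RAD50 at 9.16, PRKDC at 6.39, a value it shares with its neighbor MCM4, and ATM at 5.76, and 2 lost, RAD51B (9.41) and RNF8 (6.44). Of 14 p53 target genes, 6 were gained (42.9%), led by SESN2 (8.08), ZMAT3 (6.33) and RRM2B (5.47), and 1 lost, DDB2 (7.38). Proteasome genes (6 of 29, 20.7%) and MYC target genes (4 of 21) stayed near the background.

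The sequence before the start of LARS1, the strongest member of the synthetase list, is shown from hg38, chr5:146182697-146182846 (minus strand), with motif matches in capitals as above.
LARS1: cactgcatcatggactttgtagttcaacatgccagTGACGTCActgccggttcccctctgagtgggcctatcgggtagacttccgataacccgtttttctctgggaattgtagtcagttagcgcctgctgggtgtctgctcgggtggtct
The window holds a CRE match and lies upstream of the strongest gained region of LARS1, which begins and ends downstream of the start. LARS1 lies in a stretch with 87 gained and 28 lost regions within 5 Mb.

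Of 33 erythroid genes, 17 had a listed promoter region, of which 7 were lost (41.2%) and 1 was gained, against 10.4% and 21.0% of all genes. The lost ones were AHSP, the chaperone of alpha globin (7.83), the alpha-like globin genes HBA2 (5.5), HBA1 (5.44) and HBZ (3.69), SPTB, the spectrin of the red cell membrane (4.14), FECH, the last enzyme of heme synthesis (4.1), and the blood group gene RHD (4.1). The gained one was LMO2, an adaptor of the GATA1 complex (3.82). AHSP lies in a stretch with 47 gained and 90 lost regions within 5 Mb, and HBA1 in one with 22 gained and 59 lost. None of the 7 is on chromosome 19 or 20, and 4 of them are on chromosome 16. HBA1 and HBA2 are near-identical, and RHD has the close copy RHCE, so that these reads are uncertain. The median ratio of the lost erythroid genes was 4.14, below the 5.58 of all genes with lost regions.

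The labels give the cell type as lymphoblast. H2A.Z regions were listed at 17 of 33 erythroid, 6 of 18 megakaryocyte, 6 of 17 granulocyte and monocyte, 10 of 20 lymphocyte and 7 of 20 neuronal genes. GATA1, TAL1, HBG1 and HBG2, which are markers of K562, had none within 1 kb of the annotated start, so that this mark at promoters is a poor check of the cell type, and neither did the B cell markers MS4A1 and PAX5. Lost and no gained regions stood at 3 of the 6 granulocyte and monocyte genes, ELANE, CSF3R (10.14) and CEBPA (6.48). The same held at 4 of the 10 lymphocyte genes, CD79A, CD22 (9.35), CD2 (6.83) and LCK (6.0). A gained region and no lost one stood at 1 gene of each list, LYZ (3.43) and EBF1 (10.27). Of these 7 genes, 4 are on chromosome 19, where 22.8% of all genes with a listed region were lost, against 10.4% over all chromosomes. None of the 7 neuronal genes was lost and 2 were gained (28.6%, against 21.0% of all genes), GRIA2 (10.49) and CNTNAP2 (6.29).

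All 19 genes for TIP60 subunits had a listed promoter region. Against 21.0% gained and 10.4% lost of all genes, 7 were gained (36.8%), with EPC1 at 6.43, ACTL6A at 5.59 and BRD8 at 5.53, and 3 lost (15.8%), VPS72 (4.51), YEATS4 (4.08) and MORF4L1 (4.04). These are low ratios, with medians of 4.74 for gained and 4.08 for lost. Of the H2A.Z genes, SRCAP and INO80 subunits and chaperones, 3 of 18 (16.7%) were gained, namely H2AZ1 (7.44) and H2AZ2 (6.64), the genes of H2A.Z, and UCHL5 (6.39), and ACTR5 on chromosome 20 was lost (6.4). SAGA, which also holds TRRAP, had 4 of 20 gained and 1 lost, near the background.

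On chromosome 19, 29 of 185 ZNF genes had lost (15.7%) and 21 gained regions (11.4%), while on other chromosomes 15 of 213 had lost (7.04%) and 43 gained ones (20.2%). Of all protein-coding genes with a listed region, 22.8% had lost and 9.84% gained regions on chromosome 19, against 9.33% and 22.0% elsewhere. ZNF568 and ZNF829 shared the strongest gained region of the ZNF genes on chromosome 19 (17.46). Clustered protocadherin genes, all on chromosome 5, had 7 of 19 gained (36.8%) and 0 lost, against 21.0% gained and 10.4% lost of all genes. At all protein-coding promoters of chromosome 5, 235 regions were gained and 43 lost, a gained share of 84.5%. HOX genes had 5 of 14 gained and 3 lost. The lost ones were HOXB7 (4.86) and the pair HOXB3 and HOXB6, which share a region (4.75), and HOXB13 of the same cluster was gained (4.14). Genes of hypoxia and glycolysis had 4 of 26 lost (15.4%) and 2 gained, ENO1 (6.29) and HK2 (4.39). NF-kB targets had 5 of 18 gained, with CXCL8 at 7.68, and 3 lost, with BCL2A1 at 10.33 and TNF at 9.21.

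The other lists are to be read against the 10.4% lost and 21.0% gained of all genes, and most have few members. Megakaryocyte genes had 1 lost (RUNX1, at its outermost annotated start only) and 1 gained (GP1BB, 6.37) of 6. Mesenchymal and adhesion genes had 3 lost and 1 gained of 11, with ITGB1 lost at 5.74. AP-1 and immediate early genes had 1 lost and 3 gained of 16, with FOSL1 at 8.88 and EGR1 at 7.98. Cyclins and their kinases and inhibitors had 2 lost and 3 gained of 15, the MYC network 0 and 1 of 9, Polycomb and Trithorax genes 2 and 4 of 24, and FOX and SOX genes 3 and 8 of 32, with SOX18 lost at 15.6. Collagen genes had 3 lost and 2 gained of 16, with COL8A2 lost at 16.36, solute carriers 26 (13.1%) and 36 (18.2%) of 198, with the cystine transporter gene SLC7A11 gained at 15.35, and olfactory receptors 2 and 0 of 14.

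H2A.Zac, compared between the same lines with other libraries, moved the same way at most changed H2A.Z regions in each class. At protein-coding promoters, 76.0% of lost H2A.Z regions had at least 25% of their length on lost H2A.Zac regions and 0.219% on gained ones. Of the gained H2A.Z regions there, 65.7% lay on gained and 49.8% on unchanged H2A.Zac, the highest share on unchanged H2A.Zac among the gained regions of any class. Between genes, 62.9% of lost regions lay on lost and 11.1% on unchanged H2A.Zac, and 31.4% had no listed H2A.Zac. For gained intergenic regions the values were 62.6% on gained, 14.6% on unchanged and 30.0% without H2A.Zac. Unchanged H2A.Z promoter regions lay on gained H2A.Zac in 35.6% and on lost H2A.Zac in 12.0% of cases, and unchanged intergenic regions in 15.2% and 27.3%. The acetyl-specific antibody also needs H2A.Z to be present, so the H2A.Zac lists are not independent of the H2A.Z lists.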

How the data were processed

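H2A.Z ChIP-seq was carried out in 2 libraries per line with antibody ab4174. Per the study's methods, the authors aligned reads to hg38 with Bowtie2 2.4.5, called peaks with MACS2 2.2.7.1 at a fixed fragment size, and set the 2 lines against each other by bdgdiff of MACS2, with the tracks scaled by effective depth. The deposited score of each region is the log10 likelihood ratio with a cutoff of 3. A region stayed in the lists if 25% of it or more fell in peaks that passed the replicate check (IDR). The study merged its 2 replicates for the ChIP-seq data it shows, but at which step before bdgdiff is not given in the sources used here. Depth is unknown here, so no error can be given for the ratio of a region.

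Here, regions were assigned by overlap, in the order promoter (1 kb to each side of a gene start), exon, intron and intergenic, with GENCODE release 44, and sequences were read from hg38. Overlap with H2A.Zac regions needed 25% of the length. Motifs (13) were searched in the central 300 bases. Repeat content could not be computed because the genome used here has no masking. Shares carry 95% Wilson intervals. Interval code was tested on simulated regions against bedtools 2.31.1, and Python 3.11.15, pandas 2.3.3, numpy 2.4.6 and matplotlib 3.10.9 were used.

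The members, gene lists and motifs were chosen with earlier results of these data known, and the printed sequences after the ratios were seen. A further sequence at a strong lost promoter is not reported here. Named per direction were the 12 promoter regions of protein-coding and the 5 of lncRNA genes with the highest ratio, 6 protein-coding genes by intronic ratio, 5 by number of changed intronic regions (at least 80% one way), the nearest genes of 3 intergenic regions, up to 3 genes per list, and CCND1, TERT, DACH1, EP400, PPP1R12C and TRRAP. TMEM130 and other erythroid, lymphocyte, MCM and unlisted marker genes were named in addition, after their values were seen. Inputs, signal tracks, expression and enhancer annotations were not analysed here.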

Additional observations from a re-analysis of the deposited data

How the results depend on the processing

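Shares and gene counts were recomputed with other cutoffs, windows and units. Under these alternatives the shares at protein-coding promoters stayed above 50% and those in introns and between genes below it. The line at 50% depends on how the tracks were scaled by depth, and other scalings were not tested. The gained share of all listed regions was 41.6% (40.9 to 42.2%), and that of introns (41.2 to 43.6%) was not apart from it. Narrower bands of the ratio differed: at protein-coding promoters with a ratio of 10 to 20 the share was 51.8% (44.8 to 58.7%), and in introns with a ratio of at least 20 it was 64.0% (50.1 to 75.9%, 18 lost and 32 gained). The gained share at protein-coding promoters (65.4%) was 60.3% with a likelihood ratio of at least 5, 52.9% with at least 10, 61.7% in base pairs, 68.3% with a promoter window of 500 bases, 62.0% with 2 kb, 67.2% by midpoint, 70.7% without chromosomes 19 and 20 and 57.2% for regions of at least 500 bp. At lncRNA promoters (50.9%) it was 45.8% with a ratio of at least 5, 38.5% with at least 10, 54.1% with a window of 500 bases, 46.9% with 2 kb and 44.7% for regions of at least 500 bp, so its side of 50% depends on these settings. In introns (42.4%) it was 40.8% in base pairs, 44.1% with a window of 500 bases, 44.6% without chromosomes 19 and 20 and 39.5% for wide regions, and between genes (27.4%) 26.4% with a ratio of at least 5, 32.8% with at least 10, 26.4% in base pairs, 29.3% without chromosomes 19 and 20 and 25.5% for wide regions. The other 14 shares lay within the interval of the reported value. Genes with lost and no gained promoter regions (1256) numbered 814 with a ratio of at least 5, 102 with at least 10 and 648 for wide regions. Genes with gained and no lost ones (2532) numbered 1355, 121 and 937, since fewer regions were counted. At a ratio of at least 10 the excess of gained over lost genes was thus small (121 against 102). No paired analysis was run and no replicate was left out, because the lists used here hold no value per replicate. Library depth is unknown, which limits any statement on a region that is not listed.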
